A study of Mus musculus with 3 samples.

Results

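The barcodes described here were selected on their own gene counts as T and natural killer (NK) cells of the stomach muscle. A barcode was a member when it had at least 1500 unique molecular identifiers (UMIs, each standing for a captured RNA molecule), at most 15% mitochondrial UMIs, at most 5 UMIs of the macrophage genes C1qa, C1qb and C1qc, and 1 of 2 further signs. These were at least 3 UMIs of Cd3d, Cd3e, Cd3g and Trac together (the CD3 side), or at least 4 UMIs of Nkg7, Klre1 and Ctsw together (the cytotoxic side). Of 5735 deposited barcodes, 2882 passed the depth and mitochondrial filters, and 111 of these were members. Replicates 1, 2 and 3 gave 38, 45 and 28 of them. Female C57bl/6 mice gave the tissue, stomach muscle, which was digested with collagenase and sorted for CD45, found on leukocytes. The CD45+ cells were then captured in droplets for 3' end sequencing. All 3 libraries belong to the group labelled NonDiabetic, so no condition was compared. The labels give neither age nor treatment, and do not say whether each library came from a separate animal, so every spread given here is between libraries.

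T cells carry a receptor whose variable chains are held at the surface by the CD3 proteins, encoded by Cd3d, Cd3e, Cd3g and Cd247. Trac encodes the constant part of the alpha chain and Trdc that of the delta chain. NK cells and innate lymphoid cells (ILCs) have no rearranged receptor. NK cells use activating and inhibitory receptors such as NKp46 (Ncr1) and the Klr families and release the granule proteins perforin and granzymes. Group 2 ILCs (ILC2) depend on the transcription factor Gata3, respond to interleukin 33 through Il1rl1, and make interleukins 5 and 13 and amphiregulin (Areg).

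The name T and NK was borne out for less than the whole set. Of the 111 members, 64 (57.7%, exact Clopper-Pearson 95% interval 47.9 to 67.0%) also had at least 4 UMIs of the ILC2 genes Gata3, Il1rl1, Il17rb and Il5 with at most 5 UMIs of the mast cell genes Cpa3, Cma1 and Mcpt4, here called the ILC2 gate. They numbered 22, 22 and 20 in replicates 1, 2 and 3. The CD3 side held 82 members and the cytotoxic side alone 29. Of the 82, 53 were in the ILC2 gate, and 40 of those had passed on Cd3g alone, with no UMI of Cd3d, Cd3e or Trac. These 40 barcodes were spread over the libraries as 13, 16 and 11, and no Cd3g-only member lay outside the ILC2 gate. A UMI of Cd3d, Cd3e or Trac was found in 43 members. The set is therefore called the members of the CD3 and cytotoxic gate below, and is described in 3 classes. Outside the ILC2 gate lay 29 CD3-side members (14, 12 and 3 in replicates 1, 2 and 3) and 18 members of the cytotoxic side only (2, 11 and 5), beside the 64 inside it. This split was chosen after the values were seen. The 3 classes were not tested against each other, and fits of the 47 members outside the ILC2 gate are given as an alternative only. The ILC2 gate was not free of T-like or NK-like barcodes either. It took 13 CD3-side members with a UMI of Cd3d, Cd3e or Trac, which were of mixed kind. Among them was a barcode of replicate 1 with 11 Cd3d, 9 Cd3e, 13 Cd3g and 33 Trdc UMIs that passed with 6 Gata3 UMIs. A different barcode of replicate 1 had 4 Cd3e UMIs and none of Cd3d or Trac, beside 24 Gata3, 26 Il1rl1 and 31 Areg UMIs. A cytotoxic-only barcode of replicate 3 had 13 Klre1, 16 Nkg7 and 3 Ncr1 UMIs, and passed with 4 Gata3 UMIs.

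**Figure D1:**
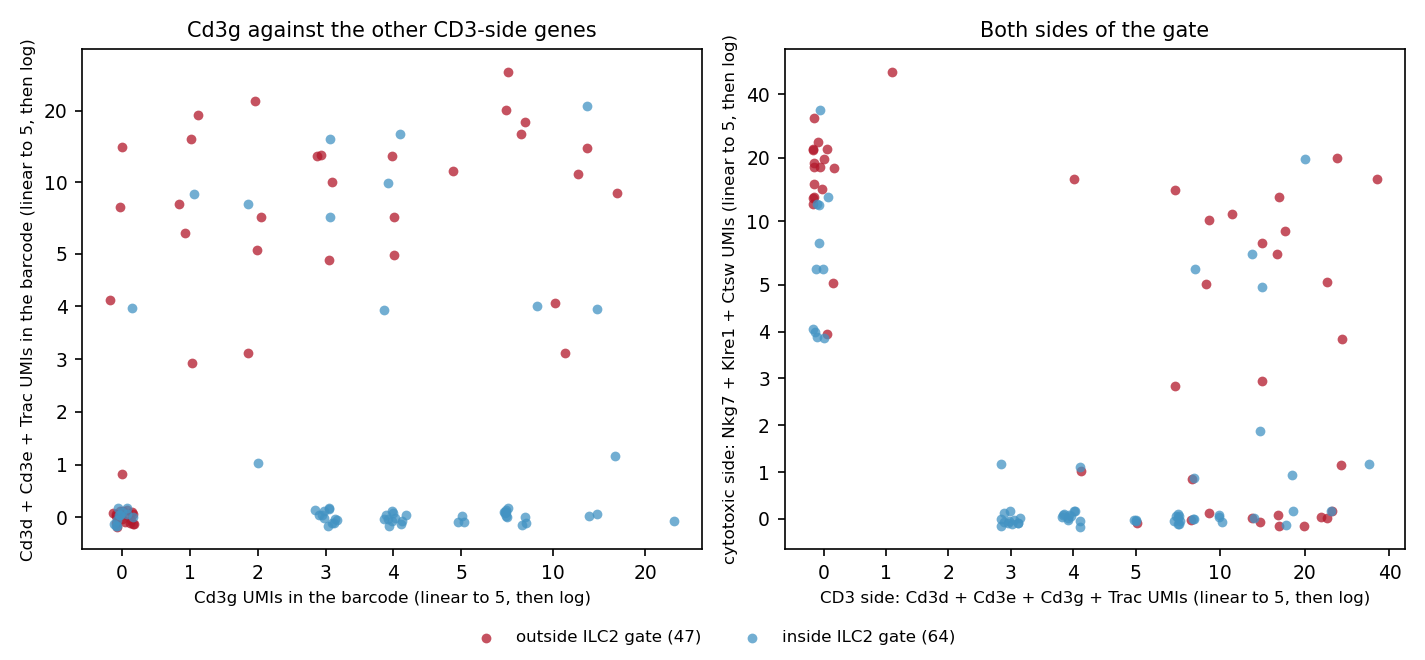
UMI counts of the gate genes in each of the 111 members (points, shifted slightly so that equal counts can be seen), with members outside the ILC2 gate in red and inside it in blue. The left panel sets Cd3g UMIs against the sum of Cd3d, Cd3e and Trac, and the 40 Cd3g-only members form the blue row at 0 from 3 Cd3g UMIs upwards. The right panel sets the CD3 side against the cytotoxic side.

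Cd3g, Cd3d and Cd3e are neighbours on chromosome 9 of GRCm38 (mm10). Cd3g (ENSMUSG00000002033) spans 44969572 to 44980431 on the minus strand, Cd3d (ENSMUSG00000032094) spans 44981786 to 44987339 on the plus strand, and Cd3e (ENSMUSG00000032093) spans 44998740 to 45009627 on the minus strand. Cd3g and Cd3d point away from each other, with 1355 bases between their starts. These spans are from the GENCODE annotation. The 250 bases before each RefSeq start are shown because Cd3g was counted in many barcodes that had no UMI of its neighbours. They are from RefSeq (GRCm38.p6), at chr9:44980432-44980681 (minus strand) for Cd3g, chr9:44981536-44981785 (plus strand) for Cd3d and chr9:45009612-45009861 (minus strand) for Cd3e. The RefSeq start of Cd3e lies inside the GENCODE span, so the last bases of its window, with the TGTGG match and part of the GGAAG match nearest the start, are within the gene as given above. Capitals mark matches on either strand to GATAA (core of GATA motifs), TGTGG (core of RUNX motifs) or GGAAG (core of ETS motifs).
Cd3g: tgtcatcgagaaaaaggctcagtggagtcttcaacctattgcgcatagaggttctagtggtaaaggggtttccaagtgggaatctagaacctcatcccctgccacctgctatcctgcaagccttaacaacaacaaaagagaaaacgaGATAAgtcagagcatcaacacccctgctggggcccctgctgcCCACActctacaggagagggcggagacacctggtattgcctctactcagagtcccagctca
Cd3d: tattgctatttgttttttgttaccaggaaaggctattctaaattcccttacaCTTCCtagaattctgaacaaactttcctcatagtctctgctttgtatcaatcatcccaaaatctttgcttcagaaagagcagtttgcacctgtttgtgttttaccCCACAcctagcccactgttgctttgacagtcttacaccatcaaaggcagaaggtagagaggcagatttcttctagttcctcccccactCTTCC
Cd3e: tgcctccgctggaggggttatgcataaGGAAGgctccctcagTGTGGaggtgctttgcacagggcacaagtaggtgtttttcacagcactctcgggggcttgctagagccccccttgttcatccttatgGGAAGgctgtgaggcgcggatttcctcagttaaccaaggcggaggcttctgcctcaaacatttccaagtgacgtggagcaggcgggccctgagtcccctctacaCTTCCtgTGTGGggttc
GATAA was found once before Cd3g and not in the other windows, TGTGG at 1, 1 and 2 places before Cd3g, Cd3d and Cd3e, and GGAAG at 0, 2 and 3. No matches overlapped. Among 32851 mouse promoter windows of the same length, 22.6% held GATAA, 49.3% TGTGG and 64.1% GGAAG. A match describes these letters only.

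Cd3g was also found in ILC2-gated barcodes that were not members. It had a UMI in 78 of 111 members and in 50 of 380 ILC2-gated non-members, against 11 of 1656 macrophage-rich barcodes (over 5 C1q UMIs). Over all 444 ILC2-gated barcodes, members included, Cd3g stood at 99.6, 94.8 and 125 CPM (counts per 1e+06 UMIs of the class) in replicates 1, 2 and 3, and was found in 102 barcodes. Of the same 444 barcodes, Cd3d was found in 10, Cd3e in 14 and Trac in 11. The gene for the T cell receptor beta constant region, Trbc2, was found in 57 of the 64 members inside the ILC2 gate and in 264 of 380 ILC2-gated non-members, against 18 of 1656 macrophage-rich barcodes. Trbc1 was found in 46 of the 64 and in 248 of the 380. Trbc1 and Trbc2 are near-identical, so reads may be split between them. At the edge of the gate, 13 barcodes had a CD3-side sum of 3, all inside the ILC2 gate, and 27 barcodes had a sum of 2, of which 20 were inside it. On the cytotoxic side 5 barcodes had a sum of 4, with 4 inside the ILC2 gate, and 9 had a sum of 3, with 7 inside it. The limit on C1q genes removed 6 barcodes.

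The members made up 7.45% of filtered barcodes in replicate 1, 3.64% in replicate 2 and 2.46% in replicate 3, a mean of 4.52% ± 2.61 (SD, n = 3). The exact 95% interval was 5.33 to 10.1% in replicate 1, 2.67 to 4.84% in replicate 2 and 1.64 to 3.54% in replicate 3, so replicate 1 lay above the other two by more than counting error. Counting error is all that such intervals cover. Members inside the ILC2 gate came to 4.31%, 1.78% and 1.76% of filtered barcodes. CD3-side members outside it came to 2.75%, 0.971% and 0.264%, again highest in replicate 1. Members of the cytotoxic side only, outside the ILC2 gate, came to 0.392%, 0.890% and 0.440%, with overlapping intervals. Barcodes positive for both sides numbered 11 in replicate 1, 6 in replicate 2 and 0 in replicate 3.

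**Figure D2:**
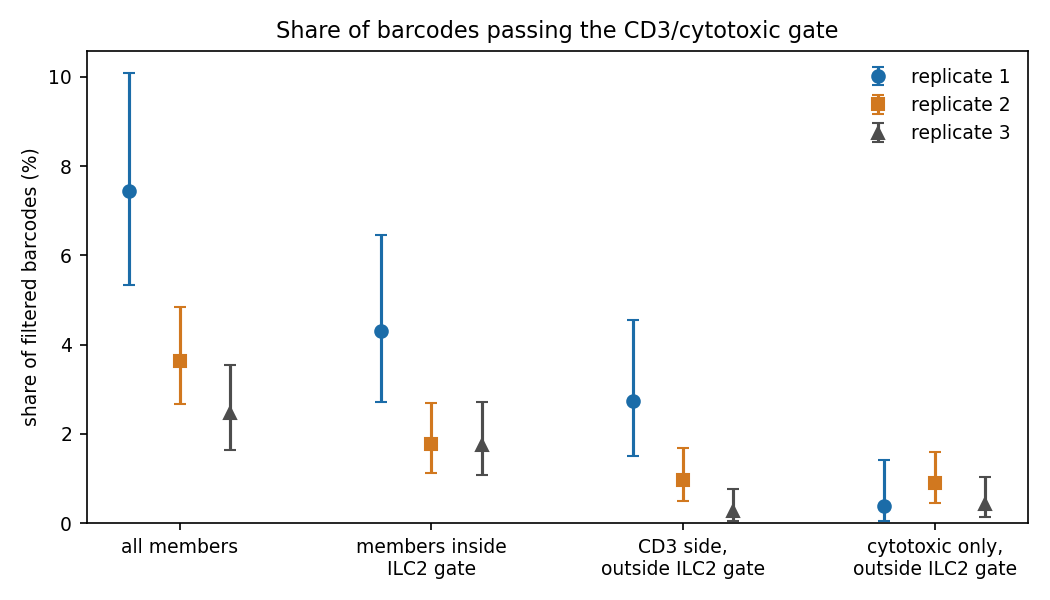
Share of filtered barcodes (y axis, %) for all members and their 3 classes, by library. Points are the libraries and bars are exact 95% intervals; all members range from 2.46% to 7.45%.

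Members had a median of 7481 UMIs, from 2547 to 54644, and all other filtered barcodes a median of 8257. By library the medians of members were 9440, 6800 and 7594 UMIs. No cell barcode sequence was shared between libraries among the members. Replicates 2 and 3 shared 33 of all deposited barcodes and 2 after filtering. The barcodes with the highest scrublet scores were marked as possible doublets, 6, 64 and 32 by library. These numbers were set in advance from the barcode count of each library, so their total of 102 is not a measured number of doublets. Of the 102, 2 were members, both inside the ILC2 gate.

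CD3-side members outside the ILC2 gate carried the transcripts of the T cell receptor apparatus beyond the genes that chose them. Of these 29 barcodes, the co-receptor gene Cd28 was found in 21, the Src-family kinase gene Lck in 23, the adaptor gene Lat in 22 and the transcription factor gene Bcl11b in 25. In the 18 cytotoxic-only members outside the ILC2 gate Cd28 was found in 12, Lck in 13, Lat in 2 and Bcl11b in 2. The surface glycoproteins Cd5 and Cd6 were found in 12 and 11 of the 29, and in none of the 18. CD40 ligand, Cd40lg, through which T cells help antigen-presenting cells, was found in 15 of the 29, in none of the 18 and in 2 of 380 ILC2-gated non-members. Tcf7, encoding a factor of naive and memory T cells, was found in 18 of the 29, and Cxcr6, a receptor of tissue-resident lymphocytes, in 17. Such transcripts were not confined to these members. A list of 21 T cell receptor signalling genes summed to 6066, 4907 and 4887 CPM in the 29. In ILC2-gated non-members it summed to 2304, 2338 and 2463 CPM, with a UMI in 374 of 380. Cd28 and Tcf7 had 70 and 46 counts in those non-members.

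A UMI of Cd4, Cd8a or Cd8b1, or at least 2 UMIs of Trdc, was found in 12 of these 29 barcodes (41.4%, exact 95% interval 23.5 to 61.1%). Cd8a or Cd8b1 was found in 6 members (3, 3 and 0 by library), 5 of them CD3-side members outside the ILC2 gate. Cd8a was found in 0 of 1656 macrophage-rich barcodes, which allows a share of up to 0.181%. Such limits for a count of 0 are 3 barcodes of the total, cover barcodes with a captured UMI and not cells expressing the gene, and are not the exact intervals given for other shares. Cd4 was found in 9 members, or 8.11% (exact 95% interval 3.77 to 14.8%), and in 111 macrophage-rich barcodes, or 6.70%. By class it was found in 4 of the 29 CD3-side members outside the ILC2 gate, 0 of the 18 cytotoxic-only members and 5 of the 64 inside the gate. All of these Cd4-positive members also held a Trac UMI, a gene of the gate. Against all other barcodes Cd4 was called higher in members (log2 fold change 1.52 ± 0.52, SE, edgeR adjusted p = 0.040), with overlapping ranges. No member held UMIs of both Cd4 and a Cd8 gene. Foxp3, which defines regulatory T cells, was found in 1 member, with 4 UMIs. That barcode of replicate 1 also had 4 Cd4 UMIs and 9 UMIs of ILC2 gate genes, 6 of them Il1rl1, which placed it in the ILC2 gate.

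The delta chain gene was found in few members, and gamma chain genes in more. At least 2 UMIs of Trdc were present in 6 members, 4 in replicate 1 and 2 in replicate 2. The 3 highest had 35, 33 and 13 Trdc UMIs and were all in replicate 1. Trdc stood at 202, 19.8 and 0 CPM in the members of replicates 1, 2 and 3. The gamma chain constant genes were not confined to the members: Tcrg-C1 was found in 25 of 111 members and 132 of 380 ILC2-gated non-members, and Tcrg-C4 in 40 and 149. The Tcrg-C genes are close paralogs, among which reads may be split. Il17a, the type 17 cytokine, rested on 3 barcodes with 79, 64 and 7 UMIs. The first, in replicate 1, had 35 Trdc UMIs, and the second, in replicate 2, had 4 Trac UMIs and no Trdc UMI. The third was the deepest member, with 54644 UMIs, 25 Cd3g UMIs and no UMI of Cd3d, Cd3e or Trac. Il17a was found in 0 of 380 ILC2-gated non-members (up to 0.789% with a UMI) and 0 of 1656 macrophage-rich barcodes (up to 0.181% with a UMI). The interleukin 23 receptor gene Il23r was found in 8 members and Il22 in none, which allows a share of barcodes with a UMI of up to 2.70%.

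The 18 members of the cytotoxic side only, outside the ILC2 gate, carried NK receptor genes. Klrk1 (NKG2D) was found in 18 of 18, Klrd1 (CD94) in 15, Klrc2 in 15, Klrc1 in 13, Ncr1 (NKp46) in 13 and Klrb1c (NK1.1) in 11. The signalling adaptors Fcer1g and Tyrobp were found in 18 and 15. Reads may be split among the Klrc genes, which are close paralogs. In the 29 CD3-side members outside the ILC2 gate Klrk1 was found in 13, Klrd1 in 7, Klrc2 in 5, Klrc1 in 4, Ncr1 in 2 and Klrb1c in 2. Ncr1 was in 1 of the 64 members inside the ILC2 gate and in none of 380 ILC2-gated non-members. The T-box factors Tbx21 and Eomes were found in 9 and 5 of the 18, and the collagen-binding integrin gene Itga1 (CD49a) in 8. S1pr5, of circulating NK cells, was found in no member. Most of the 18 also held a UMI of the T cell receptor beta genes Trbc1 or Trbc2. A barcode of replicate 3 had 4 Trbc1 and 9 Trbc2 UMIs, and a barcode of replicate 2 had 8 and 5. A different barcode of replicate 2, with 12 Klre1 UMIs, had neither.

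Chemokine rather than granzyme transcripts marked the cytotoxic-only class at this depth. Xcl1, the chemokine that draws cross-presenting dendritic cells, was found in 16 of 18 cytotoxic-only members outside the ILC2 gate (88.9%, exact 95% interval 65.3 to 98.6%), in 9 of 29 CD3-side members outside it (31.0%, 15.3 to 50.8%) and in 2 of 64 members inside it (3.12%, 0.381 to 10.8%). After thinning to 1500 UMIs per barcode these became 61.1%, 17.2% and 1.56%. Xcl1 was found in 0 of 380 ILC2-gated non-members and in 1 of 1656 macrophage-rich barcodes, whose median depth was 8545.5 UMIs against 6601 for members outside the ILC2 gate. Ccl5, a chemokine of activated T and NK cells, was found in 16 of 18, 12 of 29 and 3 of 64, and in 235 of 1656 macrophage-rich barcodes. Ifng was found in 9 of 18, 10 of 29 and 1 of 64. Perforin (Prf1) was found in 6 of 18 and 2 of 29, Gzma in 1 and 2, and Gzmb in 2 and 1. A single CD3-side barcode held 29 of the 33 Gzmb UMIs of all members.

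**Figure D3:**
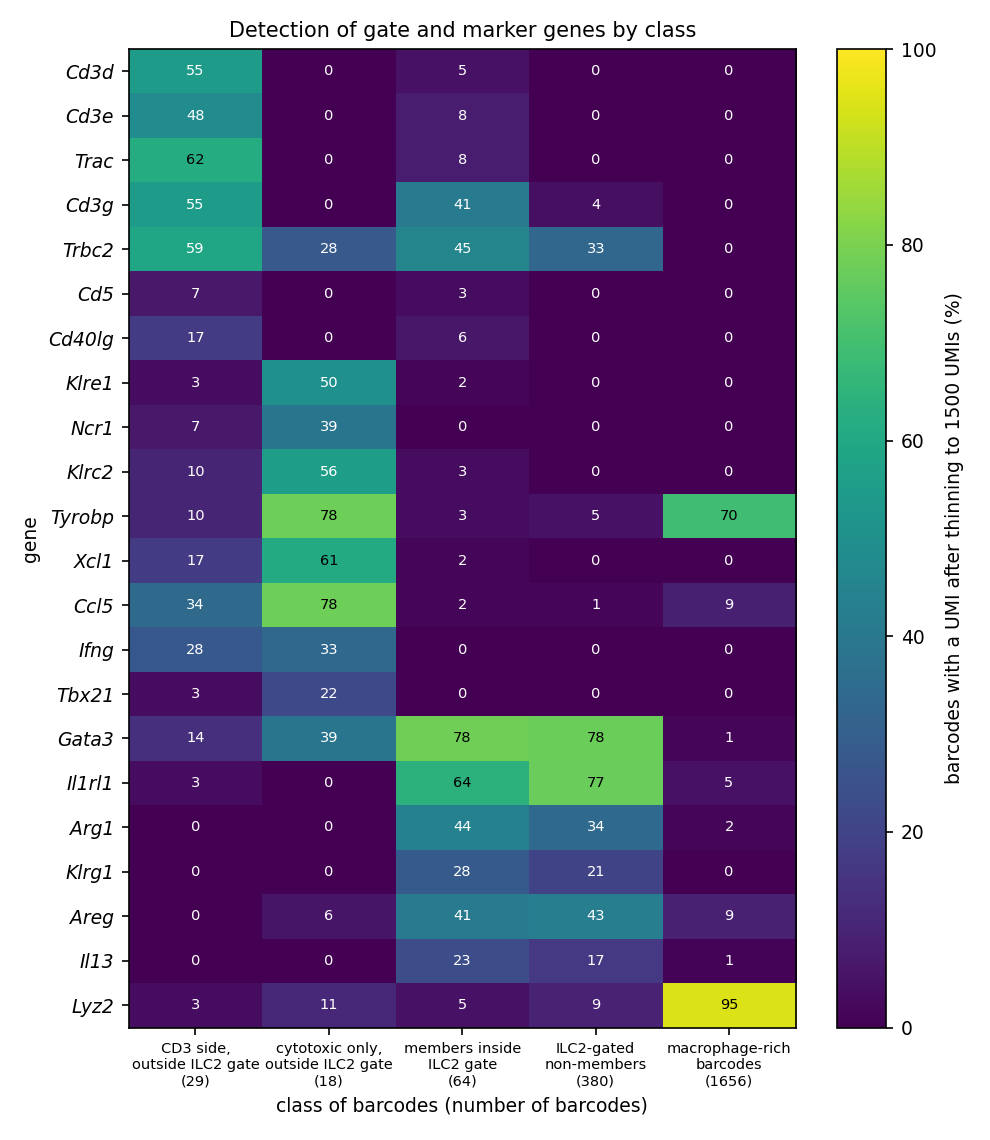
Share of barcodes with a UMI of each gene (rows) after thinning to 1500 UMIs, by class of barcodes (columns, with their number); the colour and the printed percentage give the same value. Cd3d, Cd3e, Trac, Cd3g, Klre1, Gata3 and Il1rl1 helped to define classes; Xcl1 is at 61% in cytotoxic-only members outside the ILC2 gate and Arg1 at 44% in members inside it.

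The 64 members inside the ILC2 gate carried ILC2 transcripts that neither gate used. Arginase 1, Arg1, was found in 46 of the 64 and in none of the other 47 members, and in 244 of 380 ILC2-gated non-members. After thinning the shares were 43.8% in members inside the gate and 34.2% in ILC2-gated non-members. The inhibitory receptor gene Klrg1 was found in 44 of the 64, 1 of the 29 CD3-side and 0 of the 18 cytotoxic-only members, and in 207 of the 380. Areg was found in 35 of the 64, 1 of the 29 and 1 of the 18, and in 231 of the 380. A single barcode of replicate 1, with 54644 UMIs, held 835 of the 1773 Areg UMIs of all members. Il13 was found in 20 of the 64, 1 of the 29 and 0 of the 18, and in 108 of the 380. The whole ILC2 list of 15 genes, which includes the 4 gate genes, summed to 12302, 11554 and 4743 CPM in members inside the ILC2 gate, 410, 312 and 240 CPM in CD3-side members outside it, and 7938, 10791 and 7367 CPM in ILC2-gated non-members. Its sum does not mark ILC2 alone, since macrophage-rich barcodes had 5866, 13820 and 4855 CPM, of which Cxcl2 made up 5460, 13388 and 4605 CPM.

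Against all other filtered barcodes, the members were higher in T and NK cell genes and in lymphoid genes shared with ILC2, and lower in genes of macrophages and dendritic cells. Counts were summed per library and class and fitted with edgeR's quasi-likelihood test, with the library as a block. The gate genes were left out, but genes that follow them in the same cells had to differ, so the adjusted p-values rank genes and do not test the members. Of 10406 genes 1059 (10.2%) were higher and 1846 (17.7%) lower at an adjusted p under 0.05, with a median log2 fold change of -0.10. For 14.3% of genes all 3 libraries of members lay above all 3 of the other barcodes, and for 24.0% all lay below. Nothing beyond a description is read from the list counts that follow.

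In the list of T cell receptor signalling genes 17 of 18 tested genes were higher and none lower (median log2 fold change 3.53; 3 of its 21 genes were too low to test). Lck was at 139, 182 and 156 CPM in members, against 6.79, 3.23 and 3.69 CPM in all other barcodes (log2 fold change 5.13 ± 0.31, SE, n = 3 libraries, edgeR adjusted p = 1.3e-08). Cd28 was at 183, 297 and 95.3 CPM in members, against 7.89, 5.75 and 3.37 CPM (5.02 ± 0.30). Cd6 was higher by 6.06 ± 0.73 and Cd247, encoding the CD3 zeta chain, by 5.14 ± 0.54 on the log2 scale. All 3 libraries of members lay above all 3 of the other barcodes for each of these genes. In the helper and regulatory list 7 of 7 tested genes were higher, with 5 not tested. Cd40lg was at 74.5, 99.1 and 26.0 CPM in members, against 0.184, 0.539 and 0 CPM in all other barcodes (7.91 ± 0.59). Ctla4, an inhibitory receptor, was at 161, 33.0 and 13.0 CPM in members (6.68 ± 0.53), with most of its counts in replicate 1.

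In the NK receptor list 15 of 17 tested genes were higher and 2 lower. Ncr1 had 46 counts in the members and none in all other barcodes, at least 421-fold higher against 3 counts over the class. Klrc1 had 68 counts in members against 2 in all other barcodes, a ratio of pooled CPM of 934 (counting interval 249 to 7869). The 2 lower genes, Tyrobp (96.2, 416 and 347 CPM in members, against 581, 1176 and 1256 CPM) and Fcer1g (-2.19 ± 0.22), encode adaptors that myeloid cells also use, and were found in 1517 and 1583 of 1656 macrophage-rich barcodes. Of 22 tested cytokine and chemokine genes 17 were higher and 4 lower. Xcl1 was at 200, 321 and 212 CPM in members, against 0.184, 0 and 0.211 CPM in all other barcodes, a ratio of pooled CPM of 2097 (709 to 10244). Ifng was at 57.7, 102 and 69.3 CPM in members, against 1.28, 0.0898 and 0.211 CPM (7.40 ± 0.63). Tnf was lower (-2.51 ± 0.36), at 50.5, 26.4 and 95.3 CPM in members, against 251, 495 and 225 CPM.

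Genes of residence and of circulation gave mixed values. In the residence list 4 of 11 tested genes were higher and 2 lower. When ILC2-gated non-members were the reference, 0 of its 7 tested genes were called in either direction (median log2 fold change -0.35). The list summed to 2955, 1980 and 1014 CPM in members and 2365, 2158 and 1763 CPM in ILC2-gated non-members. Cxcr6 was at 567, 410 and 217 CPM in members, against 91.4, 32.2 and 27.0 CPM in all other barcodes (3.05 ± 0.24). Cd69, which holds lymphocytes in tissue, was higher than in all other barcodes by 2.27 ± 0.23. The epithelial-homing integrin gene Itgae had 4 counts in the members, 3 of them in the 2 cytotoxic-only members with a UMI, and was not called (-1.19 ± 0.84, edgeR adjusted p = 0.33). In the circulation list 4 of 11 were higher and 3 lower. Tcf7 was higher (4.61 ± 0.40) and Klf2, a factor of circulating lymphocytes that macrophages also express, was lower (-1.83 ± 0.26). S1pr1, the receptor for tissue exit, was not called (0.22 ± 0.53, edgeR adjusted p = 0.81). It stood at 60.1, 13.2 and 8.67 CPM in members, against 16.1, 26.0 and 38.8 CPM, and without replicate 1 its log2 fold change was -1.61.

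ILC2 genes stood with the T and NK genes in this comparison. Of 14 tested genes of the ILC2 list 12 were higher and 1 lower. Gata3 was at 1077, 724 and 481 CPM in members, against 295, 140 and 113 CPM in all other barcodes (2.06 ± 0.20), and Il13 was higher by 2.55 ± 0.28. In the 47 members outside the ILC2 gate, a class that excludes high Gata3 by its definition, Gata3 was lower than in all other barcodes (-1.15), as were Il13 (-4.72) and Klrg1 (-3.04). Genes of antigen-presenting cells were at the other end. All 14 macrophage genes tested were lower, as were 9 of 10 dendritic cell genes. Cd74, the MHC class II invariant chain, was at 123, 109 and 56.3 CPM in members, against 12186, 14450 and 15857 CPM (-7.21 ± 0.27). Of 18 immediate early and heat shock genes, which tissue digestion can induce, 11 were lower and 1 higher, with Egr1 at -2.44 ± 0.26.

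**Figure D4:**
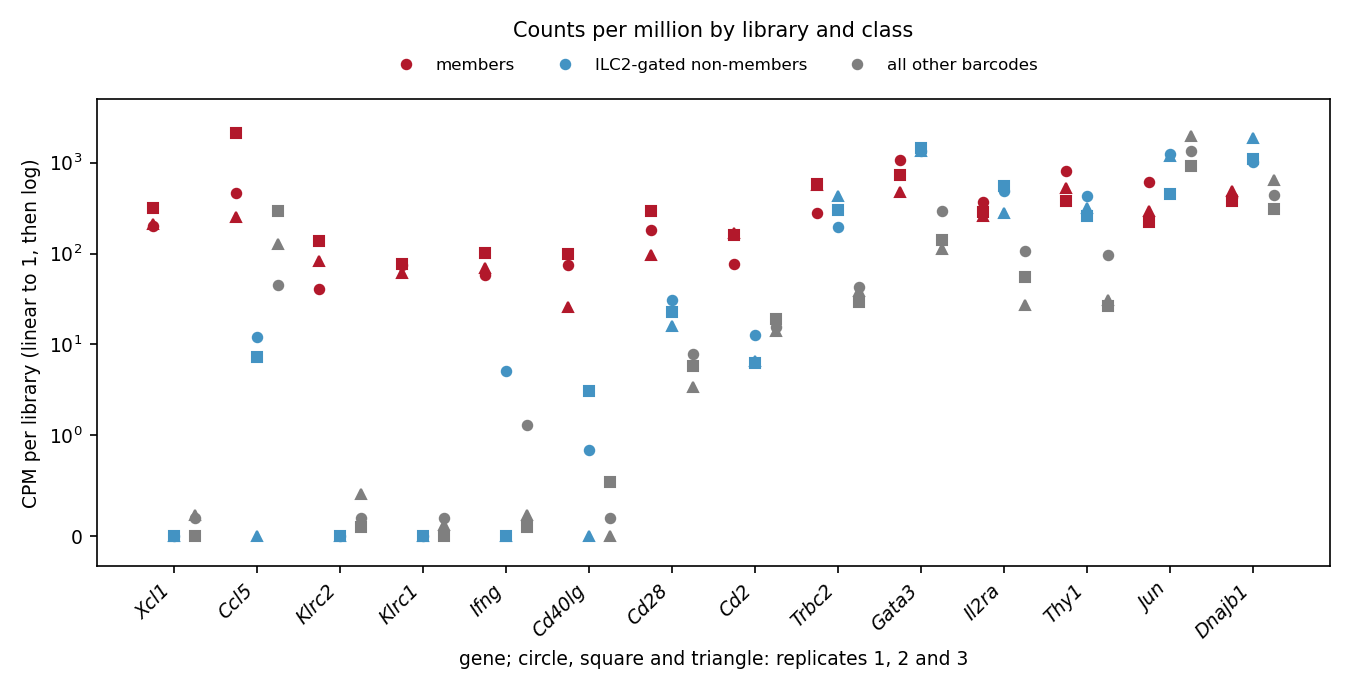
CPM per library (y axis, linear to 1 and logarithmic above) of genes in members (red), ILC2-gated non-members (blue) and all other barcodes (grey, which include the blue class). Circles, squares and triangles are replicates 1, 2 and 3; Xcl1, Klrc2 and Klrc1 are at 0 in the ILC2-gated non-members.

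Against the 380 ILC2-gated barcodes that were not members (109, 150 and 121 by library), fewer genes were called, and those higher in the members included NK receptor and chemokine genes and Tbx21. Since 64 members were in the ILC2 gate themselves, the comparison dilutes what the other 47 carry. Non-members had to fall short on the T and NK genes of the gate, so genes that follow these had to differ. Here too the adjusted p-values rank genes and do not test the members. Genes with no counts in the ILC2-gated non-members passed the filter on low counts through the members alone. Of 5798 genes 71 (1.22%) were higher and 84 (1.45%) lower, and all libraries of members lay above for 7.88% and below for 3.6%. The NK receptor list had 7 of 12 tested genes higher and none lower, with 8 not tested. The T cell receptor signalling list had 6 of 16 higher, with 5 not tested. In the cytokine and chemokine list 6 of 19 were higher and 1 lower, with 7 not tested. Xcl1 had 229 counts in the members and none in the ILC2-gated non-members, at least 233-fold higher against 3 counts over the class. Ccl5 was at 469, 2115 and 251 CPM in members, against 11.9, 7.20 and 0 CPM in ILC2-gated non-members (6.76 ± 0.47, SE, n = 3 libraries, edgeR adjusted p = 1.2e-05). Klrc2 was at least 79.5-fold, Klrc1 at least 69.3-fold and Ncr1 at least 46.9-fold higher, on the same floor.

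Also higher in the members were Cd40lg, Tbx21, Cxcr3, Cd2, Cd28, Klrk1, Il21r, Il18r1, Ly6c2 and Ms4a4b. Cd40lg was at 74.5, 99.1 and 26.0 CPM in members, against 0.853, 3.08 and 0 CPM in ILC2-gated non-members (5.41 ± 0.50). Tbx21, the master factor of type 1 lymphocytes, had 38 counts against 1, a ratio of pooled CPM of 116 (counting interval 19.6 to 4706). Cxcr3, a receptor of type 1 lymphocytes, had 52 counts against 2, a ratio of 79.5 (20.9 to 673). Cd2, an adhesion receptor, was higher by 3.71 ± 0.38, Cd28 by 2.89 ± 0.28, Klrk1 by 4.08 ± 0.49 and the interleukin 21 receptor gene Il21r by 3.55 ± 0.36. Il18r1, for interleukin 18, was higher by 2.62 ± 0.32. Ly6c2 had 121 counts in members and none in ILC2-gated non-members, at least 123-fold higher. Over all genes, the leading ones also included Ms4a4b (6.31 ± 0.46), a membrane protein of T and NK cells.

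Tcrg-C1, a receptor gene found in both classes, was at 156, 39.7 and 95.3 CPM in members, against 72.5, 97.7 and 110 CPM in ILC2-gated non-members (-0.06 ± 0.36, edgeR adjusted p = 0.97), with overlapping ranges and a sign that turned without replicate 2 (0.40) and without replicate 3 (0.11). Of 18 immediate early and heat shock genes 15 were lower in the members and none higher. Dnajb1, a co-chaperone gene, was at 418, 377 and 494 CPM in members, against 1030, 1090 and 1895 CPM (-1.70 ± 0.18). The whole list summed to 18275, 17119 and 16625 CPM in members, against 36213, 27080 and 38940 CPM in ILC2-gated non-members, and the part of tissue handling in this was not tested. Of 11 tested proliferation genes 3 were higher, with overlapping ranges for 2 of them. Top2a was at 200, 16.5 and 95.3 CPM, against 85.3, 7.20 and 3.97 CPM (1.75 ± 0.42), was not called without replicate 2, and stood at -0.79 in a gate without Cd3g. In the members, 102 of its 110 counts were in the ILC2 gate.

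Among the genes lower against ILC2-gated non-members were MHC class II genes, whose levels in that class differed between libraries. Cd74 was at 123, 109 and 56.3 CPM in members, against 5895, 644 and 115 CPM in ILC2-gated non-members (-3.66 ± 0.61), and H2-Ab1 at 81.7, 29.7 and 39.0 CPM, against 2277, 183 and 67.4 CPM (-3.53 ± 0.54). The ranges overlapped for Cd74 and H2-Ab1. Without replicate 1 the log2 fold change of Cd74 was -2.16, and neither gene was called without replicate 2. With the looser gate (2 CD3-side or 3 cytotoxic UMIs) the log2 fold change of Cd74 was 0.0030, with the sign turned, and H2-Ab1 was no longer called. The list of 10 dendritic cell genes summed to 332, 278 and 143 CPM in members and to 12377, 1251 and 311 CPM in ILC2-gated non-members. The list includes Cd74, H2-Ab1, H2-Aa and H2-Eb1, so its sum largely repeats the MHC class II values and is not separate from them. In ILC2-gated non-members H2-Aa was at 2084, 220 and 54.2 CPM and H2-Eb1 at 1882, 196 and 52.9 CPM. The part of dendritic cells in the result was not tested.

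Within the members, the 82 barcodes of the CD3 side and the 29 of the cytotoxic side only were compared as the gate gives them, with 32, 32 and 18 against 6, 13 and 10 barcodes by library. edgeR called none of 1672 genes (0%) at an adjusted p under 0.05, with 133 at an unadjusted p under 0.05, and DESeq2 called 12. The CD3 side lay above the cytotoxic side in all libraries for 2.81% of genes and below for 6.1%, and 10 of 11 tested NK receptor genes lay below. The gate genes defined the 2 sides, so genes that follow them in the same cells had to differ. The count of NK receptor genes and the p-values of this comparison are therefore a description and do not test the sides. Both sides here include members in the ILC2 gate, 53 on the CD3 side and 11 on the cytotoxic side only. Those 11 were 4, 2 and 5 in replicates 1, 2 and 3. The smallest adjusted p was 0.0517, and the genes with it included Ncr1, Tyrobp and Fcer1g, all 3 lower on the CD3 side. Ncr1 was at 5.62, 13.3 and 0 CPM on the CD3 side, against 99.6, 232 and 190 CPM on the cytotoxic side only (log2 fold change -4.37 ± 0.57). Tyrobp was at 28.1, 97.7 and 0 CPM on the CD3 side, against 498, 1342 and 896 CPM (-4.44 ± 0.60). Bcl11b was at 422, 258 and 205 CPM on the CD3 side, against 66.4, 64.5 and 67.2 CPM (2.11 ± 0.36, edgeR adjusted p = 0.0846). Xcl1 (-2.45 ± 0.71, edgeR adjusted p = 0.31) and Ccl5 (-1.86 ± 0.72, edgeR adjusted p = 0.57) were not called. Without replicate 1, which gave 6 barcodes to the cytotoxic side, 50 genes were called. Outside the ILC2 gate the sides could be fitted in no more than 1 library with at least 5 barcodes in each class, so no test was made.

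For the macrophage, B or plasma, stromal and mast cell marker lists, summed levels were lower in the members than in all other barcodes in each library. The macrophage list of 14 genes summed to 108, 258 and 147 CPM in members, against 7458, 16209 and 19857 CPM in all other barcodes, with Trem2 at 0 in the members. The B or plasma cell list of 10 genes summed to 96.2, 76.0 and 95.3 CPM in members, against 145, 3365 and 178 CPM, with 6 of its genes at 0 in the members. The stromal and smooth muscle list of 10 genes, of cells that a CD45+ sort should remove, summed to 96.2, 19.8 and 47.7 CPM, against 6866, 1032 and 1000 CPM. The mast cell list of 8 genes summed to 161, 142 and 351 CPM in members, against 818, 415 and 409 CPM, and most of that in the members was Kit, which ILC2 also express. The monocyte or granulocyte list of 8 genes summed to 132, 238 and 21.7 CPM in members, against 737, 491 and 258 CPM, and its gene Ly6c2 was higher in the members (3.20 ± 0.43). The ILC2 list was not lower in every library, at 8562, 6137 and 3709 CPM in members, against 4246, 9800 and 3951 CPM in all other barcodes. Of these sums Cxcl2 made up 539, 1005 and 780 CPM in members, and 2484, 8633 and 3212 CPM in all other barcodes.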

How the data were processed

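The authors deposited 1 matrix of UMI counts per library, not normalised, and the submitters' processing notes name Cell Ranger 3.1 and mm10. The matrix of replicate 1 gives version 3.0.0, and those of the other two give 3.1.0, per the file headers. The annotation release is not given in the sources used here. Filtered barcodes had at least 1500 UMIs and at most 15% mitochondrial UMIs. Those of replicates 1, 2 and 3 held 5865161, 11437516 and 9726017 UMIs.

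The members and gene lists were chosen with earlier results of these data known. For each class, counts were added up within a library. They were tested with edgeR 4.0.16 (R 4.3.3) by the two-sided quasi-likelihood test with TMM scaling and the filterByExpr filter. The library was a block, because each one gave both classes. Benjamini-Hochberg adjustment ran over all genes tested. Gate genes (also those of the ILC2 gate against ILC2-gated barcodes) and mitochondrial genes were left out. Standard errors are the log2 fold change over the root of F. p-values measure the spread between libraries, which may be technical. A count of 0 allows up to 3 counts. Detection counts in the text are not thinned unless said. Thinning to 1500 UMIs lost no member. Doublets were scored with scrublet (scanpy 1.11.5) and kept. The number marked in each library came from an assumed rate that rose with its number of barcodes. The alternatives included DESeq2 1.42.0, other gates and each library left out. Scripts were tested on simulated data.

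Genes were named from the 23 fixed lists when they passed the test with the largest changes, up to 4 per list and direction, or when they define a T or NK subset. The leading genes over all genes were added when they had over 30 counts in the members and the same direction in every library. Genes described only by detection come from the fixed lists and were chosen after their values were seen, as were Tyrobp, Fcer1g and Bcl11b on the 2 sides of the gate.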

Additional observations from a re-analysis of the deposited data

How the results depend on the processing

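The mean share of members was 4.52% of filtered barcodes, with a wide SD of 2.61. It moved by less than 1 SD with other limits on UMIs, mitochondrial share and C1q genes, doublets removed or a library left out. The same held for the looser and the stricter gate, although these held 146 and 79 members. Shares by library were 9.02, 4.77 and 3.61% with the looser gate and 5.29, 2.51 and 1.85% with the stricter gate. The mean share was 1.90% for members outside the ILC2 gate, an alternative chosen after seeing the data. The mean share of members inside the ILC2 gate, 59.4%, was 46.6% with the gate at 5 CD3-side or 6 cytotoxic UMIs, and 35.3% in a gate without Cd3g, also chosen after seeing the data. Mean detection in members after thinning and without it was 15.8% and 23.7% for Xcl1, 26.9% and 43.8% for Arg1 and 23.0% and 32.3% for Areg.

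Against all other barcodes 2905 genes were called, and 1271 of the 5083 genes left to test in thinned barcodes. Against ILC2-gated barcodes 155 were called, 88 by DESeq2, 65 in thinned barcodes, 80 and 258 with the looser and the stricter gate, 286 without Cd3g in the gate, 414 for members outside the ILC2 gate and 549 with no filter on low counts. Leaving out each library gave 51 to 331, with 331 without replicate 1, 51 without replicate 2 and 272 without replicate 3. Without the replicate block 52 were called, against 2229 for all other barcodes and 0 for the 2 sides of the gate. Between the sides, 4 genes were called at a 3000 UMI minimum, 6 at a C1q limit of 2, 12 by DESeq2, 2 in thinned barcodes, 4 with doublets removed, 13 and 40 with the looser and the stricter gate, 78 with no filter and 0 to 50 with a library left out. The cause was not tested.

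The sign turned in 14 cases. Against all other barcodes these were Gata3 (-1.15), Il13 (-4.72), Klrg1 (-3.04) and Kit (-1.11) for members outside the ILC2 gate, and S1pr1 by DESeq2 (-0.26), with doublets removed (-0.020) and without replicate 1 (-1.61; 0.86 without replicate 3). Against ILC2-gated barcodes they were Top2a without Cd3g in the gate (-0.79), Cd74 with the looser gate (0.0030), and Tcrg-C1 for members outside the ILC2 gate (0.18), without replicate 2 (0.40) and without replicate 3 (0.11; -0.83 without replicate 1). Between the sides Gata3 (0.60) stood at -0.16 in thinned barcodes and -1.45 without Cd3g in the gate. With 111 members, a gene found in a few barcodes cannot be compared between libraries.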
